A study of Mus musculus with 9 samples.

Results

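HEB binding was compared between mouse DN3 thymocyte precursors and the CD73+ cells that were raised from them, using 1 list of chromatin immunoprecipitation (ChIP-seq) peaks for each stage. The members are all 21813 peaks of the HEB pair on chromosomes 1 to 19, X and Y, 11619 from DN3 cells and 10194 from CD73+ cells, of 79216 peaks in the 6 lists of the study. A DN3 peak that shares at least 1 bp with a CD73+ HEB peak is called kept, and one that does not is called lost. A CD73+ peak that meets a DN3 HEB peak is called shared, and one that meets none is called new. These words describe the lists alone, because a peak that falls just under the authors' calling threshold is absent from a list in the same way as a site with no binding.

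All cells were grown from fetal liver progenitors of the BALB/c strain that lack Rag2 and so cannot rearrange their own antigen receptor genes. The DN3 group was harvested at day 7 of culture and carried no receptor. For the CD73+ group, DN3 cells of the same kind were infected overnight with the MIY-KN6 retrovirus, which carries a YFP marker beside a gamma-delta T cell receptor (KN6), in the presence of IL7, Flt3L and polybrene. Sorted YFP+ cells then spent 3 days on OP9-DL1 stroma, were fixed for 10 min in 1% formaldehyde, and were sorted as Thy1+ YFP+ CD4- CD8- CD24+ CD73+. The CD73- group came from the same cultures and was sorted by absence of CD73, and E2A was precipitated from all 3 populations. The HEB antibody was a rabbit serum raised to the last 12 residues of the protein. No group was infected without the receptor, so effects of the receptor, the infection, the added culture days and the sort cannot be told apart. Duplicates were joined by the authors into a single list for each factor and stage. No replicate error can therefore be given, every interval below covers counting error only, and no test of a difference between stages was made. Sequencing depth is unknown. Each peak carries the authors' deposited score, which in MACS grows as the p-value of the peak falls and which also grows with depth. Scores are therefore set side by side across lists, with no direction of change read from them. Fewer cells with HEB at a site and less HEB there in each cell cannot be told apart.

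HEB, encoded by Tcf12, and E2A, encoded by Tcf3, are basic helix-loop-helix transcription factors (E proteins) that pair with themselves or each other and bind the E-box motif CANNTG. In DN3 cells they sustain genes of T cell identity and of receptor assembly, among them Rag1, Rag2 and Ptcra. Signals from the pre-TCR or from a gamma-delta receptor raise Id proteins, which pair with E proteins and keep them off DNA. CD73, a surface enzyme encoded by Nt5e, marks gamma-delta precursors that have received such a signal and have left the alpha-beta path.

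Promoter sequences of 9 genes are shown because a HEB peak of a stated class lay on each of them. The letters are those of RefSeq on GRCm38.p6, the mm10 assembly that the lists use. Each run is the 250 bases before an annotated transcription start, 5′ to 3′ in the direction of the gene. Capitals mark E-boxes (CANNTG, the same letters on both strands), except in H2bc14, where they mark CCAAT or its reverse complement. Arpp21, a gene of immature thymocytes, Bbc3, which encodes the cell death protein PUMA, and Rag1, which encodes a subunit of the V(D)J recombinase, had kept peaks.
Arpp21: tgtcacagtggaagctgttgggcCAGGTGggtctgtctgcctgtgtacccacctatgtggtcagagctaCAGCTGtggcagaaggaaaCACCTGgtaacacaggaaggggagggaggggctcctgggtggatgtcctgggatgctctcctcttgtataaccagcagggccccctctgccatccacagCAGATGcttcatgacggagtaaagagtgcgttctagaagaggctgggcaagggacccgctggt
Bbc3: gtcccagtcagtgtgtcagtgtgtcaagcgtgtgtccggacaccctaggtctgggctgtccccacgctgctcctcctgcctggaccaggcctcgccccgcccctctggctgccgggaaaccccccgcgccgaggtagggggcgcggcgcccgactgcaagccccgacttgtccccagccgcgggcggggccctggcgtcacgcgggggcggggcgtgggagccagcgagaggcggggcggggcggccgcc
Rag1: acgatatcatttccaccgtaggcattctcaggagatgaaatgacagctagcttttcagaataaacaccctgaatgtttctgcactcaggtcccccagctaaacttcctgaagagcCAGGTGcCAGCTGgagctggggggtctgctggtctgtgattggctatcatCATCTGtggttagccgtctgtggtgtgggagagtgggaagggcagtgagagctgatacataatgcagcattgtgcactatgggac
The Arpp21 window (chr9:112217262-112217511, minus strand) held 4 E-boxes, among them CAGCTG and CACCTG, and lay inside a DN3 peak scoring 856 that was met again at 1031. Rag1 (chr2:101649533-101649782, minus strand) held 3 E-boxes in a DN3 peak of 51.9 that was met again at 104. Bbc3 (chr7:16309333-16309582, plus strand) held 0 E-boxes, and its CD73+ peak (chr7:16309691-16310297) lay wholly beyond the printed bases.
Tle6, a member of the Groucho family of corepressors, Bhlha15, which encodes the helix-loop-helix factor MIST1, and Ptcra, which encodes the pre-TCR alpha chain, had lost peaks.
Tle6: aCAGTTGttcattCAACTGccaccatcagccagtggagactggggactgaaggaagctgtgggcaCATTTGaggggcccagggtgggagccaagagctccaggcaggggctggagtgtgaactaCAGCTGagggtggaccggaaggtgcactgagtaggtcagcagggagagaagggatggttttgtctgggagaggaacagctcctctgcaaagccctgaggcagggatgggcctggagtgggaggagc
Bhlha15: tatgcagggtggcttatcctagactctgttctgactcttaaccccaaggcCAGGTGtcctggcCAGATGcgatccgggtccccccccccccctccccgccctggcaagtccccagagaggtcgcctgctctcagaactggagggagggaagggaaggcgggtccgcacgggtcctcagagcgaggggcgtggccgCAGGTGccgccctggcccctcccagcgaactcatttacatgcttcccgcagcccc
Ptcra: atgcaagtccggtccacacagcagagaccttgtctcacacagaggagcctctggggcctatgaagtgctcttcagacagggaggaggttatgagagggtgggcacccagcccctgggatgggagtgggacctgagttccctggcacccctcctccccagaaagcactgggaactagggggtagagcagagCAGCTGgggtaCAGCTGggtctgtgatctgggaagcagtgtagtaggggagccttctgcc
These windows lay at chr10:81597368-81597617 (minus strand) for Tle6, chr5:144190036-144190285 (plus strand) for Bhlha15 and chr17:46763713-46763962 (minus strand) for Ptcra. They held 4, 3 and 2 E-boxes, so loss from the list was not limited to promoters without the motif. Both E-boxes of Ptcra read CAGCTG.
Ccr4, a chemokine receptor gene, Atf4, which encodes a stress-response factor, and H2bc14, a histone gene, had new peaks.
Ccr4: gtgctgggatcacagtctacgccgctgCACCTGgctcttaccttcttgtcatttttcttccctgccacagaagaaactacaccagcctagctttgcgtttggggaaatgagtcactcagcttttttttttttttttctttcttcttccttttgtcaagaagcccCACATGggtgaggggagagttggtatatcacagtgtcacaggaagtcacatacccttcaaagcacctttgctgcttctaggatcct
Atf4: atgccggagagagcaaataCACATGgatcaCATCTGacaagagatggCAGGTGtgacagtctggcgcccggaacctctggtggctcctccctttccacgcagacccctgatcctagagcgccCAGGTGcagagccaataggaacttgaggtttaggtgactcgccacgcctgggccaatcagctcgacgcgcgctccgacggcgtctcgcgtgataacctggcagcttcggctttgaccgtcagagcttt
H2bc14: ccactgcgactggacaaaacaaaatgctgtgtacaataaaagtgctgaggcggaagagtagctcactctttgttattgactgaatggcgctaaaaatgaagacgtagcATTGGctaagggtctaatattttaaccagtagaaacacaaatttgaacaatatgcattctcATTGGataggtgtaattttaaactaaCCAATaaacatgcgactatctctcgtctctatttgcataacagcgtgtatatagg
Ccr4 (chr9:114496545-114496794, minus strand) held 2 E-boxes and a new peak of 74.2 (chr9:114496642-114496943). Atf4 (chr15:80254934-80255183, plus strand) held 4 E-boxes and a new peak of 69.7 (chr15:80254821-80255023). In both windows the last E-box lay outside the peak. H2bc14 (chr13:21721794-21722043, plus strand) held 0 E-boxes and 3 CCAAT motifs. Its new peak, scoring 343 (chr13:21721446-21721877), ended before any of these motifs. Rag1, Ptcra and H2bc14 were added after their values were seen, and the others follow the rule for named genes.

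Over all 21262 windows of 300 bases (250 before to 50 after a start) the E-box letters were unevenly spread over the classes. CAGCTG occurred in 32.6% of the 242 windows with a kept peak, 24.5% of 318 with a lost peak, 19.3% of 212 with a new peak and 15.6% of all windows. CACCTG, which was searched on both strands, occurred in 38% of kept, 34.3% of lost, 26.4% of new and 19.7% of all windows. CANNTG as a whole, which contains both, was in 79.8% of kept, 77.7% of lost, 72.2% of new and 69% of all windows. A match describes the letters only and is not a binding site by itself.

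Of the 11619 DN3 HEB peaks, 3157 were kept, or 27.2% (95% Wilson interval 26.4 to 28), and 8462 were lost. Of the 10194 CD73+ HEB peaks, 6605 were new, or 64.8% (63.9 to 65.7), and 3589 were shared. E2A measured in the same populations gave a smaller overlap, with 9.27% of 12357 DN3 E2A peaks met again in the CD73+ E2A list. In the CD73- HEB list 19.4% of the DN3 HEB peaks were met again. The lists differ in length and their depths are unknown, and the part of depth in these shares was not tested.

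The share kept followed the DN3 score. It was 8.63% (327 of 3790) for scores of 50 to 60, 43.2% (901 of 2088) for 100 to 200, 90.3% (251 of 278) for 500 to 1000 and 96.4% (106 of 110) from 1000 up. New peaks were mostly low, with 84.8% of CD73+ peaks of 50 to 60 being new, 10.6% (90 of 849) of those of 200 to 500, and 1 of 189 between 500 and 1000. None of the 101 CD73+ peaks from 1000 up was new, which allows a share of up to 2.97%. Among peaks scoring at least 100, called strong here, 57.6% (2054 of 3567) of DN3 peaks were kept and 21.1% (518 of 2458) of CD73+ peaks were new. The highest sites of DN3 cells were thus nearly all in the CD73+ list, and the lost and new classes were drawn mainly from low peaks. Regions of repeats or of high background signal were not filtered out here, and their part among the highest peaks was not tested. The widest kept peak, on chromosome 9 and nearest to Alkbh8, spanned 38779 bp and scored 3100 in both HEB lists.

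**Figure D1:**
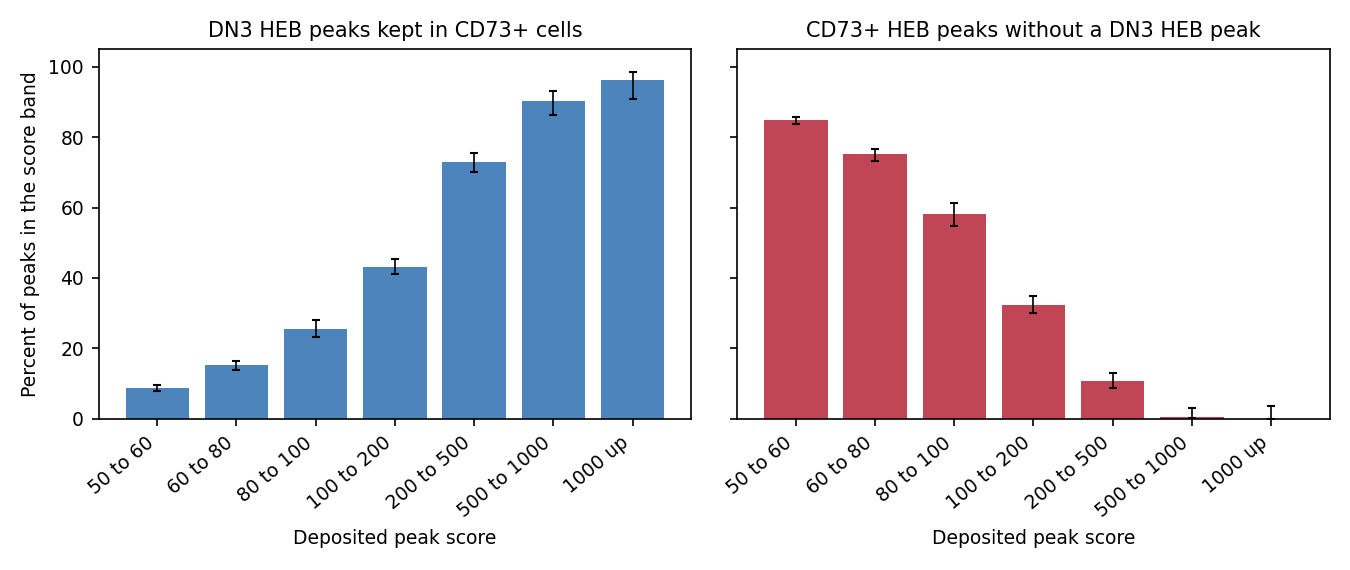
Percent of DN3 HEB peaks kept in the CD73+ list (left) and of CD73+ HEB peaks with no DN3 HEB peak (right) in 7 bands of the deposited score. Bars are shares and whiskers 95% Wilson intervals: kept peaks went from 8.63% in the lowest band to 96.4% in the highest, and new peaks from 84.8% to 0.

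Kept sites were mostly sites that E2A held too. Of the kept DN3 HEB peaks, 83.8% overlapped a DN3 E2A peak, against 31.8% of the lost peaks, and 50.6% of kept peaks overlapped a CD73- HEB peak against 7.8% of lost ones. Put the other way, 49.5% (2645 of 5339) of DN3 HEB peaks with E2A were kept and 8.15% (512 of 6280) of those without. The gap was present at like scores: between 100 and 200 it was 50% (812 of 1624) with E2A and 19.2% (89 of 464) without, and between 200 and 500 it was 75.5% (781 of 1034) and 26.3% (15 of 57). Both factors of a stage were set against 1 and the same input, at depths that are unknown, and the part of these in the gap was not tested.

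New sites also met other lists, though less often. Of all 6605 new peaks 15.1% overlapped a DN3 E2A peak, 8.52% a CD73- HEB peak and 8.58% a CD73+ E2A peak, and 72.4% (4779) met none of the other 4 lists. Among the 518 strong new peaks, 53.1% overlapped DN3 E2A and 59.8% (310) overlapped DN3 E2A or CD73- HEB, which left 208 with neither. Many strong peaks that are new for HEB therefore lay on sites that already held an E2A peak in DN3 cells. Of the 1513 strong lost peaks, 72% overlapped DN3 E2A, 18.9% CD73- HEB and 8.13% CD73+ E2A.

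**Figure D2:**
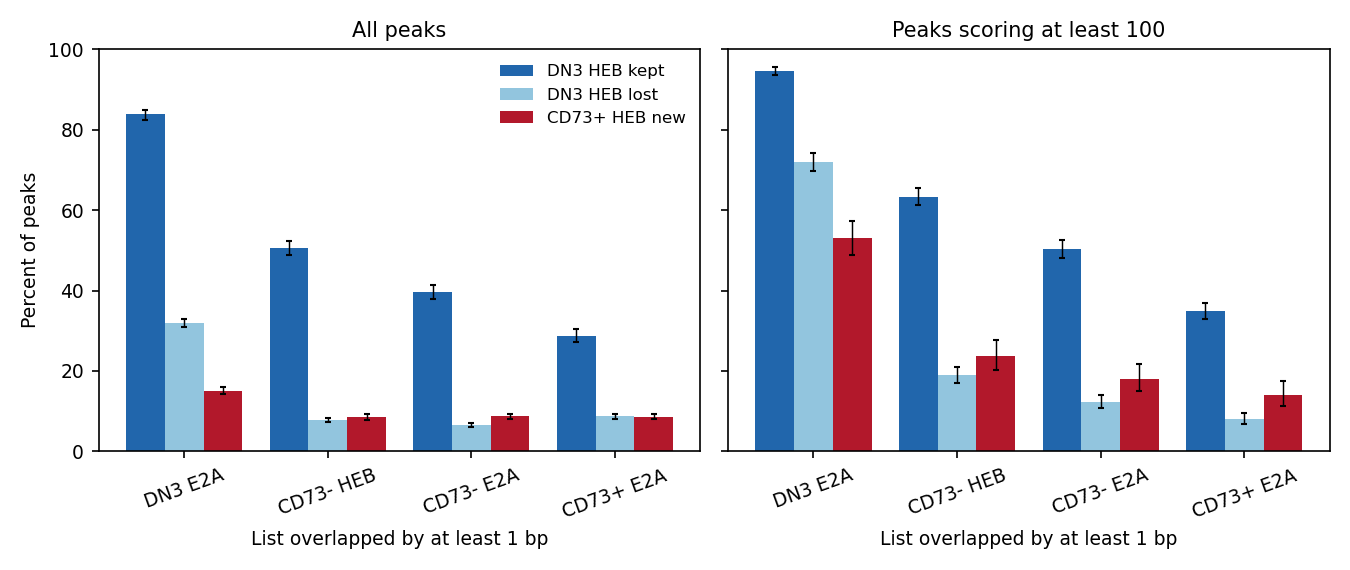
Percent of kept, lost and new HEB peaks that overlap (at least 1 bp) each of the other 4 peak lists, for all peaks (left) and for peaks scoring at least 100 (right). Whiskers are 95% Wilson intervals: the kept class is highest in every list, at 83.8% for DN3 E2A among all peaks and 94.7% among strong ones.

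Read along both CD73 populations, 1596 DN3 HEB peaks (13.7%) were met in CD73+ and CD73- cells, 1561 (13.4%) in CD73+ cells alone, 660 (5.68%) in CD73- cells alone, and 7802 (67.1%) in neither. Among the 3567 strong DN3 peaks those shares were 36.5%, 21.1%, 8.02% and 34.4%. Only 25 lost peaks lay on sites with a peak in all 4 other lists. The gene nearest to the highest of them was Fndc3b, at 1987, and those nearest to the next were Dpp9, at 1047, and Sulf1, at 843. At Sulf1 the CD73- HEB score was 1096 and the CD73+ E2A score 1147, so that site lacked a call in the CD73+ HEB list alone.

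The lists also differed in peak width. Kept DN3 peaks had a median width of 950 bp and lost ones 678 bp, while shared CD73+ peaks had 277 bp and new ones 167 bp. Of the shared CD73+ peaks 93.2% lay wholly inside a DN3 peak, and the midpoints of a pair were a median of 106 bp apart. DN3 peaks of 600 to 800 bp were kept in 13.6% of cases, those of 800 to 1000 bp in 32.1%, and those from 3000 bp up in 91.1% (41 of 45). Across the 3157 kept peaks the DN3 score and the highest overlapping CD73+ score had a Spearman rho of 0.563, given as a description, since peaks of a list share library and depth. The median distance from a peak's edge to the nearest protein-coding gene was 0 bp (inside the gene) for kept, 3410 bp for lost and 13222 bp for new peaks. A gene span held 51.1% of kept, 44.7% of lost and 35% of new peaks, and 12.9%, 18% and 24.7% lay over 100 kb from any. Strong peaks did not show this gradient: 56.3% of strong DN3 peaks inside genes and 61.9% of those over 100 kb away were kept, and 22.2% and 20.8% of strong CD73+ peaks there were new.

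**Figure D3:**
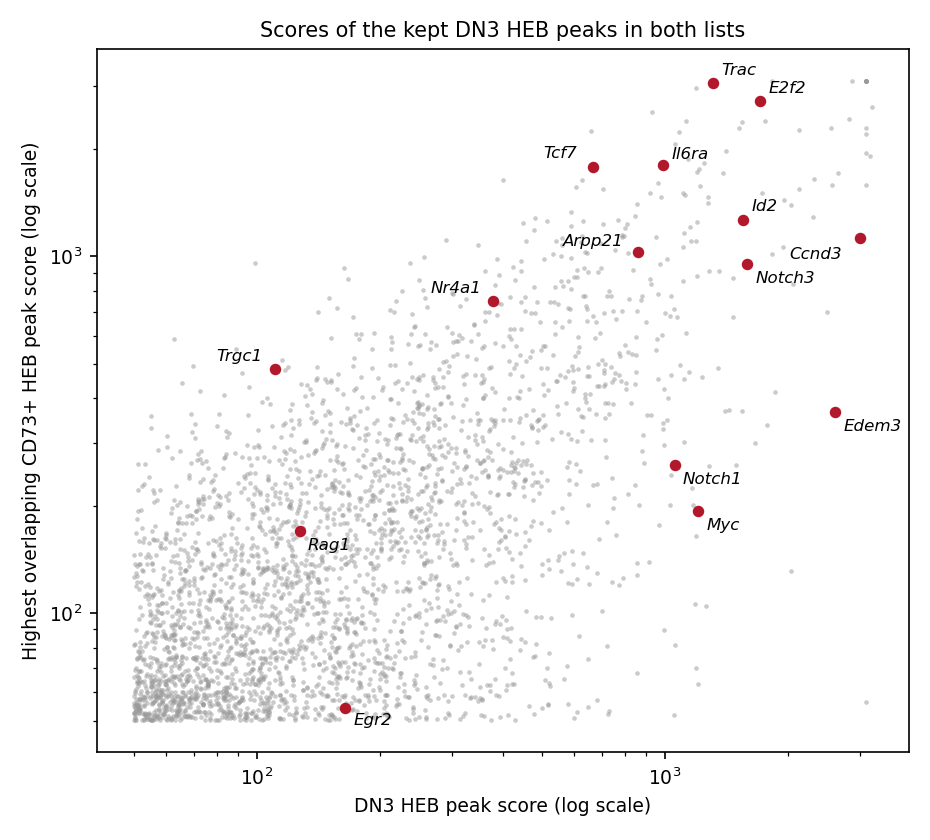
Deposited score of each of the 3157 kept DN3 HEB peaks (x axis, log scale) against the highest score of the CD73+ HEB peaks it overlaps (y axis, log scale). Red points mark the highest kept peak of 15 genes: Trgc1 lies far above the middle of the cloud (111 and 483), and Myc far below it (1207 and 193).

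Each peak was assigned to the nearest of 21891 protein-coding genes, with the T cell receptor constant genes included. At least 1 DN3 HEB peak fell to 6143 genes, or 28.1%. A kept peak fell to 2310 genes, 10.6% of all and 37.6% of those with a DN3 peak. All DN3 peaks were lost, with no CD73+ peak in their place, at 2593 genes, 11.8% of all and 42.2% of those with a DN3 peak. A further 1240 genes (5.66%) lost their DN3 peaks and had a CD73+ peak elsewhere, and 1848 genes (8.44%) had CD73+ peaks only. These shares are the background for the gene groups below, which were chosen with earlier results of these data known, so a high count in them is no independent evidence. A gene with many DN3 peaks also has more chances of a kept one, and the share of peaks kept in a group is therefore given beside the genes, against 27.2% of all DN3 peaks.

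**Figure D4:**
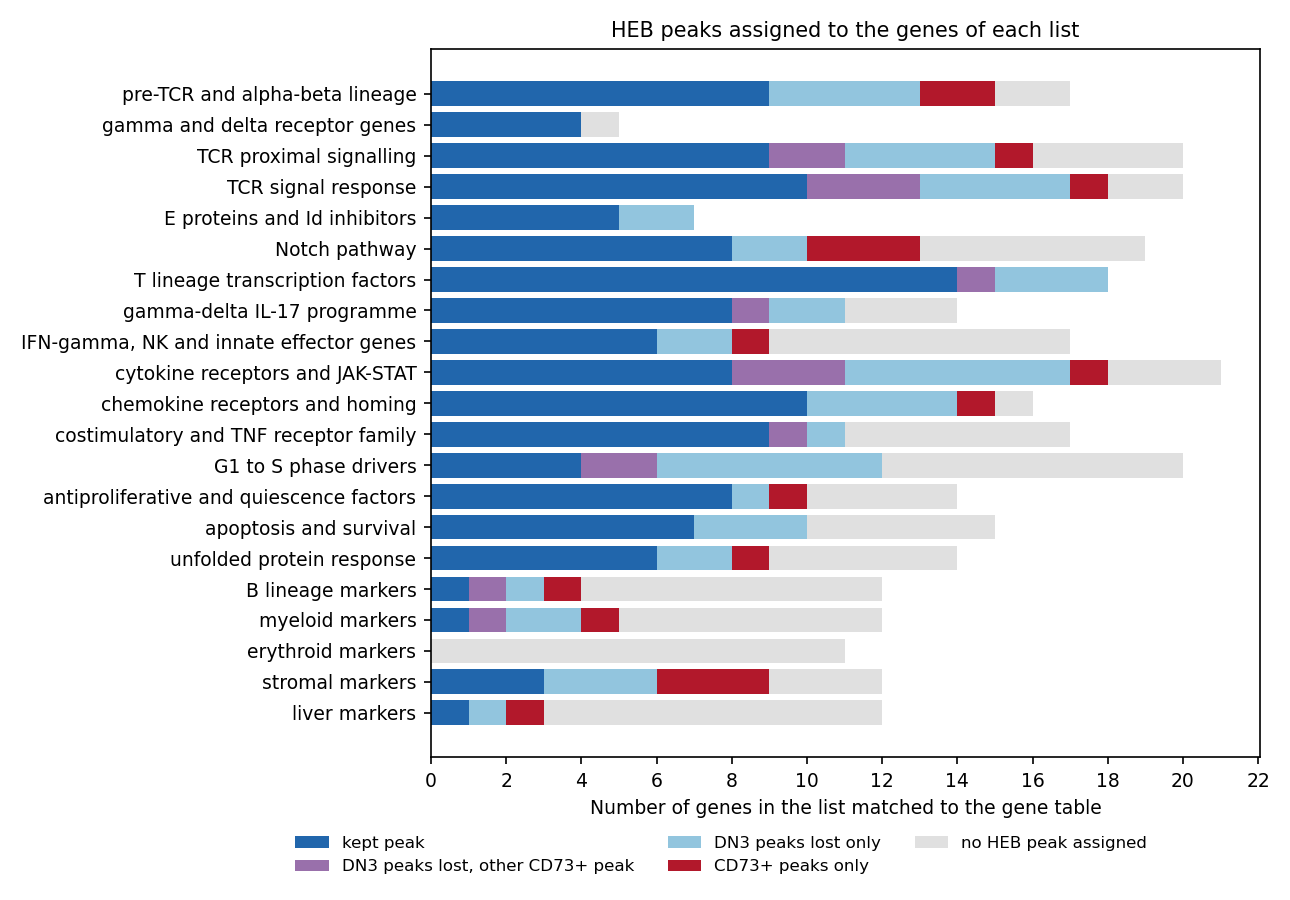
Number of genes in each of 21 lists by the HEB peaks assigned to them: a kept peak, DN3 peaks lost with another CD73+ peak, DN3 peaks lost only, CD73+ peaks only, or none. T lineage transcription factors show a kept peak at 14 of 18 genes, and erythroid markers no peak at any of 11.

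The 12 highest kept peaks within 100 kb of a gene all had a peak in each of the 6 lists. B4galt1, a galactosyltransferase gene, had a DN3 peak of 3213 (20633 bp upstream) and a CD73+ score of 2622. Ccnd3, which encodes cyclin D3, the cyclin that drives division after the pre-TCR signal, had one of 3002 inside the gene (chr17:47541092-47543430), with 1124 in CD73+ cells, 2466 in the CD73- HEB list and 604 in the CD73+ E2A list. Edem3, whose product helps to clear misfolded glycoproteins, had 2605 and 366. Near Rpusd4 and Ly6c2 the score was 3100, the value at which several scores are tied, in both HEB lists.

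Genes of receptor assembly and of the alpha-beta path were split. Of 17 genes 13 had a DN3 HEB peak, 9 kept at least 1, 4 were lost only and 2 had CD73+ peaks only, and 15 of their 30 DN3 peaks (50%) were kept. Trac, the constant gene of the alpha chain, had its 1 DN3 peak (chr14:54226572-54228442, 2374 bp from the gene) at 1311 in DN3 and 3063 in CD73+ HEB, with 1074 in CD73- HEB, 2804 in DN3 E2A and 320 in CD73+ E2A. Trbc2, a beta chain constant gene, had 638 and 1026 at 1 site. Rag1 kept both of its peaks, at 127 and 169 just upstream and at 51.9 and 104 on the promoter. The lost genes were Ptcra, with 2 peaks of 73.7 and 73.4, Cd3e, a signalling chain of the receptor, with 3 peaks up to 84.7, Cd4, with 1 of 82.02, and Cd8b1, with 4 of up to 256. These last encode the coreceptors that later mark alpha-beta thymocytes. All of the Ptcra, Cd3e and Cd4 scores are in the bands where most DN3 peaks were lost. The genes of the other signalling chains in the list kept peaks. Cd3g kept its 1 (197 and 348), Cd3d its 1 (70.6 and 57.8), and Cd247 kept 3 of 4 (496 and 487 at the highest). New peaks alone fell to Trbc1, at 142, and to Themis, a gene of thymocyte selection, at 143 inside the gene.

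Genes of the gamma and delta chains kept peaks at 4 of 5 members, and 13 of 29 DN3 peaks (44.8%) were kept. Trgc1, a gamma constant gene, had 1 DN3 peak 2559 bp away (chr13:19219177-19220423) with 111 in DN3 HEB, 483 in CD73+ HEB, 169 in DN3 E2A and no peak in the other lists. Trgc2 had 106 and 207 at its kept site. The delta constant gene Trdc was nearest to 25 DN3 peaks, of which 10 were kept. Those peaks spread over the variable segments of the joint alpha and delta locus, which are not in the gene table, and the highest (1010 and 987) lay 581483 bp from Trdc.

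The genes of the E proteins and of their inhibitors were themselves near HEB peaks in 7 of 7 cases, with 5 kept and 2 lost only, and 13 of 29 peaks (44.8%) kept. Id2, an inhibitor of E proteins, had 16 DN3 peaks, of which 7 were kept. The highest, 92666 bp upstream (chr12:25188758-25191725), scored 1552 in DN3 and 1267 in CD73+ HEB, with 739 in CD73- HEB and 186 in CD73+ E2A. Id3, the inhibitor that receptor signals raise through Egr factors, kept both of its low peaks (75.1 and 94.3 at the nearer) and had 4 new ones of up to 85.2. Tcf12, the gene of HEB itself, kept a peak inside the gene (141 and 242) and had 2 new ones, the higher at 123. Tcf3, the gene of E2A, lost both of its peaks (120 and 57.1), and Id1 lost both of its own (123 and 51.8).

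In the Notch pathway, which drives early T cell development through cleaved receptors and the DNA-binding protein RBPJ, 10 of 19 genes had a DN3 peak, 8 kept one, 2 were lost only and 3 had CD73+ peaks only. At the peak level 11 of 37 (29.7%) were kept. Among the receptors, Notch3 kept an internal peak (chr17:32163574-32165221) of 1591 and 952, and Notch1 kept one 8984 bp upstream (chr2:26512806-26514291) of 1056 and 260. Both sites had CD73- HEB peaks, of 725 at Notch3 and 201 at Notch1. Maml3, a coactivator gene, kept 2 of 11 peaks, the highest at 1350 and 487. Rbpj lost all 4 of its peaks, the highest at 114, and Hes5, a target gene, lost its 1 peak of 55.5.

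T lineage transcription factors had a DN3 HEB peak at all 18 genes, a kept one at 14, and lost peaks only at 3, with 31 of 81 peaks (38.3%) kept. Tcf7, which encodes TCF1, kept all 3, the highest 30424 bp upstream (chr11:52313807-52315051) at 666 in DN3 HEB, 1785 in CD73+ HEB, 286 in CD73- HEB, 1170 in DN3 E2A and 122 in CD73+ E2A. Gata3 kept 1 of 4, at 259 and 606, at 261149 bp from the gene. Bcl11b, a commitment factor, kept 2 of 6, the higher at 161 and 201, and lost one of 168. Gfi1 kept 2 of 3 (616 and 558 at the higher), and Runx1 kept 2 of 7 (596 and 479). The losses were Zbtb7b, which encodes the CD4 lineage factor ThPOK, with 3 peaks of up to 430, Zeb1, with 2 of up to 256, and Myb, with 2 of up to 150.3. The strong peaks of Zbtb7b and Zeb1 were lost, as 1513 of the 3567 strong DN3 peaks were.

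Proximal receptor signalling had DN3 peaks at 15 of 20 genes, with 9 kept, 4 lost only and 2 with other CD73+ peaks, and 18 of 45 peaks (40%) kept. The adaptor gene Lat kept a promoter peak of 490 and 347. Lck, the kinase that starts the signal, kept both (123 and 161, 114 and 58.8). Lcp2, which encodes the adaptor SLP-76, lost all 4, the highest at 162, and Syk lost 2, of up to 160.01, with 2 low new peaks elsewhere. Cd2, an adhesion receptor gene, kept 1 of 2 and had 3 new peaks, the highest at 228.

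Genes that answer receptor signals had kept peaks at 10 of 17 genes with a DN3 peak, but 13 of 46 peaks (28.3%) were kept. Nr4a1, an immediate-early receptor gene, kept an internal peak of 379 and 751, with 135 in CD73- HEB and 414 in DN3 E2A. Egr2 kept its 1 peak, 30176 bp upstream, at 164 and 54.2, and Egr3 had no HEB peak assigned. Myc kept 2 of 8, the highest at 1207 and 193 and 220905 bp from the gene. Dusp2, an ERK pathway phosphatase gene, kept 2 of 5 (443 and 136, 125 and 163). Irf4 lost its 1 peak of 132, and Spry1, a feedback inhibitor gene, its 1 of 92.6.

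Regulators of the IL-17 producing gamma-delta programme had DN3 peaks at 11 of 14 genes, with 8 kept, and 11 of 24 peaks (45.8%) kept. Sox4 kept 2 of 7, the highest 4878 bp upstream at 926 and 836. The kinase gene Blk kept its 1 at 370 and 487, and Sox13 kept 1 of 2 at 153 and 87.1. Batf and Il1r1 lost their peaks of 58.6 and 99.8. Of 17 interferon and killer genes, 8 had a DN3 peak and 6 kept one, with 9 of 22 peaks (40.9%) kept. Ifng kept 1 of 3, 22617 bp away, at 143 and 182. Eomes lost its 1 peak of 67.8, a site with 103 in CD73- HEB.

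Cytokine receptor and JAK-STAT genes had DN3 peaks at 17 of 21 members, with 8 kept, 6 lost only and 3 with other CD73+ peaks, and 12 of 38 peaks (31.6%) kept. Socs3, a feedback inhibitor gene, kept a peak 12799 bp away at 1141 and 1881, and Il6ra one inside the gene at 988 and 1806. The genes of both interferon gamma receptor chains had a lost DN3 peak and a new CD73+ peak at another site. Ifngr1 had a lost peak of 60.1 and a new one of 408 (chr10:19565812-19566316, 25633 bp upstream), and Ifngr2 a lost peak of 65.1 and 2 new ones, the higher at 259 (12823 bp upstream). At both of these new sites the DN3 E2A list had a peak, of 223 and 162, and the CD73- lists had none. Cish, a STAT5 target gene, lost its 1 peak of 204, Tgfbr1 lost one of 379 that had 397 in CD73- HEB, and Il7r lost its 1 of 65.03.

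Chemokine and homing genes kept peaks at 10 of 14 with a DN3 peak, and 13 of 31 peaks (41.9%). Selplg, the selectin ligand gene, had 1577 and 1269, and Ccr9, a receptor that guides cells to thymus and gut, had 684 and 903. Klf2, a gene of thymic exit, kept both of its peaks. Cxcr3 lost its 1 peak of 198. Ccr7 kept 1 of 2 and had 2 new peaks, the higher at 244. Costimulatory genes kept peaks at 9 of 11, and 11 of 26 peaks (42.3%). Lag3 had 1106 and 1064. Icos had the highest new peak of any list gene, 490 at chr1:61016567-61017191 (16245 bp from the gene), where DN3 HEB, DN3 E2A, CD73- HEB and CD73+ E2A had no peak and CD73- E2A had one of 69.4. Its 1 DN3 peak, of 85.5 and 57249 bp away, was lost. Nt5e, the gene of CD73, lost its peak of 66.4 inside the gene, and its new peak of 314 lay 231059 bp upstream, at a site with peaks in the 4 other lists.

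Cell cycle drivers kept 6 of 26 peaks (23.1%) and a kept peak at 4 of 12 genes, while 6 genes were lost only, all near the shares over all peaks and genes. E2f2, an activator of S phase genes, had its internal peak at 1707 and 2721, and Ccne1, which encodes cyclin E1, at 218 and 495. E2f4, which encodes a repressor E2F, lost both of its peaks, the higher at 277 inside the gene, and Ccnd2 lost all 3 of its DN3 peaks, the highest at 82.8, and had 2 new ones, the higher at 92.1 inside the gene. A separate list of antiproliferative and quiescence factors, which leaves out those brakes, kept peaks at 8 of 9 genes, and 20 of 41 peaks (48.8%). These lists therefore do not separate drivers from brakes. Btg2 had 2126 and 1550, Klf13 1109 and 1504, and Tob1 396 and 171 on its promoter.

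Apoptosis genes kept peaks at 7 of 10, and 13 of 25 peaks (52%), in a list that mixes both directions of the pathway. Bbc3 (533 and 744) and Bcl2l11, which encodes BIM (414 and 508), promote death, and Bcl2l1, which encodes BCL-XL (514 and 488), opposes it. Mcl1, another survival gene, lost its 1 peak of 92.2, and Pmaip1, which encodes NOXA, lost both of its own, the higher at 102. Genes of the unfolded protein response kept peaks at 6 of 8, and 7 of 15 peaks (46.7%). Ern1, the kinase gene that activates XBP1, had 274 and 231, and Eif2ak3, which encodes PERK, 278 and 254. Xbp1 itself lost 4 of 4. The highest, 18657 bp upstream (chr11:5499751-5501984), scored 1039 in DN3 HEB and 1913 in DN3 E2A and had no peak in any of the 4 lists of the transduced cells.

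Marker genes of other cells were set against the 28.1% of all genes with a DN3 peak. Stromal and myeloid genes were above that share, and B lineage, erythroid and liver genes below it. Each list holds 11 or 12 genes, so these shares rest on few genes. No expression was measured, so these lists describe peaks and do not count cells. Among B lineage genes 3 of 12 had a DN3 peak and 2 of 7 peaks were kept; among myeloid genes it was 4 of 12 and 2 of 7, the highest near Itgam at 784 and 1134. Erythroid genes had none in either list (0 of 11), stromal genes 6 of 12 and 3 of 7 peaks kept, and liver genes 2 of 12 and 1 of 3. New peaks numbered 6 at B lineage genes (4 of them at Cr2), 6 at stromal, 4 at myeloid and 3 at liver genes. All were low, the highest at 75.8 near Dcn, and over all 21891 genes there were 6605. CD73+ peaks alone fell to 1 of 12 B lineage, 1 of 12 myeloid, 3 of 12 stromal and 1 of 12 liver genes. Over all genes that share was 8.44%.

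The 12 highest lost peaks within 100 kb of a gene scored between 789 and 1987. In order of score they were nearest to Fndc3b (1987), Phlda1 (1771), Dpp9 (1047), Xbp1 (1039), Tle6 (982), Sulf1 (843), Tbc1d31 (835), Gm8882 (825), Lipc (817), Wdr66 (816), Bhlha15 (793) and Gas8 (789). A CD73- HEB peak lay on 11 of these 12 sites, all but that of Xbp1, and a CD73+ E2A peak on 5. At Phlda1, a gene of a cell death regulator, the CD73- HEB score was 329, and at Bhlha15 and Tle6, whose promoters are printed above, it was 95.1 and 79.03. The highest losses were thus losses from the CD73+ HEB list that left a peak in the CD73- HEB list, unlike the 1513 strong lost peaks as a whole, of which 18.9% met one.

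The 12 highest new peaks chosen in the same way were lower, between 377 and 538. Ccdc146 came first (538, inside the gene), and among the others were Icos (490), Ctnnd1, which encodes p120 catenin (455), Tex14 (417), Ifngr1 (408), Ryr3 (384) and Glb1 (377). A DN3 E2A peak lay on 10 of the 12, and a CD73- HEB peak on 4. In DN3 E2A the sites of Ccdc146, Ctnnd1, Tex14 and Ryr3 had peaks of 74.4, 113, 106 and 69.8. Near Glb1 a DN3 HEB peak of 98.7 was also kept, with 959 in CD73+ cells, so the gene had a new and a kept site.

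Replication-dependent histone genes recurred among the new peaks. This group was chosen after its values were seen and is given as a description, and neither reads nor input signal at these genes were analysed here. Of 57 clustered histone genes on chromosomes such as 13 and 3, 41 had a new peak within 200 bp, from 46 peaks, and 25 of the 518 strong new peaks (4.83%) were of this kind. By contrast 3 DN3 HEB peaks, all kept, and 0 of 8462 lost peaks lay there, which allows a share of lost peaks of up to 0.0355%. H2bc14 had 343 in CD73+ HEB, H2ac23 289.8 and H2ac11 287, with no DN3 HEB peak at any of these 3. In CD73- HEB 13 genes had a peak, the highest at 97.8, and in CD73+ E2A 9 had one, the highest at 82.8. Of 19 histone windows with a new peak, 17 held CCAAT, 13 (68.4%) held an E-box, 2 held CACCTG and 0 held CAGCTG. Among all 53 histone windows 45 held CCAAT and 7 held CAGCTG, while CCAAT was in 38.1% of the other windows. E-boxes were thus about as frequent as in all windows (69%), and CCAAT came with the gene family. Of 1004 genes of small nuclear RNAs, chosen in the same way, 28 had a new peak within 200 bp. These were 28 new peaks (0.424% of 6605), 15 of them strong (2.9% of 518). Of DN3 peaks, 6 kept (0.19% of 3157) and 0 of 8462 lost lay there.

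**Figure D5:**
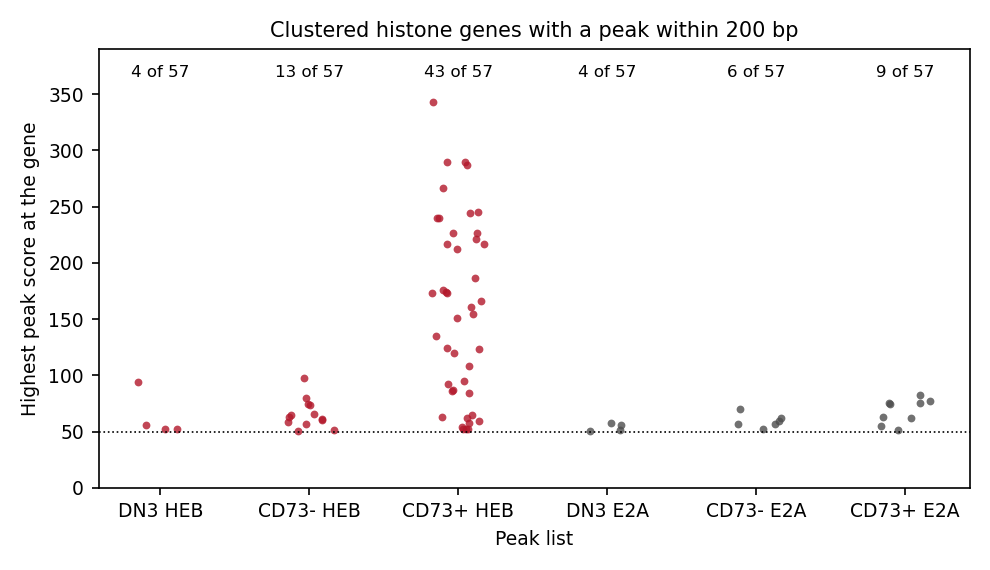
Highest peak score within 200 bp of each of 57 clustered histone genes in the 6 lists, with points only for genes that have a peak and their number above; the dotted line is the lowest score in the files. CD73+ HEB has a peak at 43 genes and reaches 343, while DN3 HEB has one at 4 and CD73- HEB at 13.

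New peaks were spread unevenly over chromosomes. On the X 86.2% (483 of 560) of CD73+ HEB peaks were new and 14.5% (52 of 359) of DN3 peaks were kept, while kept shares on the autosomes were between 24.2% and 30.9%. Between 20 and 30 Mb of chromosome 8 lay 234 new peaks, 46 of them strong, and 53 DN3 HEB peaks. That stretch held 2.8% of all CD73+ HEB peaks and 0.456% of DN3 HEB peaks. It held 2.46% of CD73- HEB and 2.51% of CD73- E2A peaks, but 0.836% of CD73+ E2A peaks, which was less than the 0.963% of DN3 E2A peaks.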

How the data were processed

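The 6 peak lists (HEB and E2A in DN3, CD73- and CD73+ cells) were used as deposited, and input libraries were not analysed here. Bowtie, HOMER and MACS 1.4.2 are the tools named in the submitters' processing notes, with build mm10, and per the labels' protocols duplicates were joined into a single file. Peak scores are MACS values that the authors deposited, from 50 up with ties at 3100, and were not changed. All 6 lists were matched to groups by name, and 0 columns were left unmatched.

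Main-chromosome peaks (1 to 19, X and Y) were overlapped (at least 1 bp) with Python 3.11.15, numpy 2.4.6 and pandas 2.3.3, and shares were given 95% Wilson intervals (scipy 1.17.1). The overlap and nearest-gene steps were tested on simulated peaks. Genes were RefSeq spans on GRCm38.p6, the same assembly. Distance was taken from the peak's edge to the span, ties by gene start, and exons and introns were not used here. A start window was given for 17491 of 21891 genes (79.9%). The 21 lists hold 317 symbols, of which 313 matched.

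Members, lists and rules were chosen with earlier results of these data known. Named genes are those nearest to the 12 highest kept, lost and new peaks within 100 kb, up to 3 kept, 2 lost and 2 new members per list, and a fixed set of regulators. Genes named outside the rule (Cd2, Ccr7, Klf2, Myb, Il7r, Cd3d, Cd3g, Cd247, Cdkn1a, Cdkn1b, Rb1, Rbl1, Alkbh8, histone genes) were chosen after their values were seen. Alternatives were other score limits, list lengths, overlap rules, widths, gene distances and the CD73+ E2A list. Some genes that the rule names are left out of the text here but count in their lists.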

Additional observations from a re-analysis of the deposited data

Results flagged for a closer look

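Outside chromosomes 1 to 19, X and Y, which no comparison above used, the CD73+ HEB list had 131 peaks on unplaced or other sequences, 58 of them scoring at least 100 and the highest at 1798. The DN3 HEB list had 44 there, 31 of them at least 100 and the highest at 1853. Of the 131 CD73+ peaks 79 met a DN3 peak and 52 did not. They are given because they are signal in data that the comparisons leave out. No control list was given for these sequences.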

How the results depend on the processing

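Over 16 other settings, 36 values of the 5 main results stayed near those reported (shares within their interval, gene counts within 1.5 times) and 32 moved. The share of DN3 HEB peaks kept (27.2%) was 41.2% with both lists at a score of at least 100, 57.6% with the DN3 list alone at that score, 30% at equal list length, 53.2% for the 1000 highest peaks of each, 4.43% with overlap over 50% of both peaks, 28.5% with a gap of up to 500 bp, 21.2% with every peak cut to 1 equal central width, and 14.2% against CD73+ E2A. The share of new CD73+ peaks (64.8%) was 36.6%, 21.1% (CD73+ list alone at that score), 65.8%, 45% and 94.9% under the first 5 of these, 66.9% with midpoints within 500 bp, 63.4% with the gap, 75.2% at the equal width, 66.1% without peaks wider than 3000 bp and 91.8% for CD73+ E2A. Chosen after seeing the data, leaving out sites in every list gave 23.2% kept and 70% new, and leaving out X, Y and chromosome 8 at 20 to 30 Mb gave 62.8% new. Genes with a kept peak (2310) numbered 1215 with both lists at 100, 490 for the 1000 highest, 473 at 50% overlap and 1377 against E2A. Genes with lost peaks only (2593) numbered 1204 with both lists at 100, 605 with the first alone and 341 for the 1000 highest. Genes with CD73+ peaks only (1848) numbered 480, 181 and 344 in the same order, and 3652 for E2A. Fewer peaks enter under a score limit or a fixed number. A pair at the median widths, 988 bp in DN3 and 277 bp in CD73+, cannot meet the rule of overlap over 50% of both peaks. For the other moves the cause was not tested. No paired analysis was possible because each group has 1 pooled list. Depth is not in the lists, so a low peak absent from one was not detectable there and is not shown to be absent.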
